A study of Mus musculus with 78 samples.

Results

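The 10 genes described here are a set of RNA decay and deadenylation factors: Btg4, Cnot6l, Zfp36l2, Pabpn1l and Cpeb1, which are known from oocytes, and Cnot7, Tut4, Tut7, Ythdf2 and Ythdf3, which act in many cell types. Their rows were found by the Entrez identifier of each gene symbol, a rule that uses no measured value. The genes themselves were chosen with earlier results of these data known. All 10 were listed in the 4-cell gene table and 9 in the 8-cell gene table, out of 16956 genes listed in at least 1 of the tables and 13604 listed in both.

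Single blastomeres came from mouse embryos that carried one copy of the Brainbow2.1 cassette at the Rosa26 locus, Gt(ROSA)26Sortm1(CAG-Brainbow2.1)Cle, and one copy of Tg(CAG-cre/Esr1*)5Amc, a Cre recombinase driven by the broadly active CAG promoter that enters the nucleus when tamoxifen binds it. All embryos, at both stages, were given 4-Hydroxytamoxifen at the 2-cell stage and then kept in KSOM, a medium for culture of early embryos, so that no untreated blastomere is among them. The labels describe 36 blastomeres of 9 4-cell embryos and 31 blastomeres of 4 8-cell embryos, with 12 of lineage A and 12 of lineage B resolved at the 4-cell stage and 13 of each at the 8-cell stage. The gene tables hold 24 columns for the 4-cell stage and 26 for the 8-cell stage, 5 of these named NA, and no column name matches an embryo, a lineage or a sample label. The 5-cell and 6-cell embryos in the labels were not analysed here.

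For this reason each stage counts as 1 sample. Blastomeres are described by their lowest, median and highest value and by counts, and no p-value, standard deviation over blastomeres or lineage comparison is given. Values are FPKM, the fragments of a gene divided by its length and by the total of the library, which are per length and can therefore be set side by side between genes. A gene was counted as above threshold in a blastomere at FPKM above 1. The stage difference of a gene is its median log2(FPKM + 1) over 8-cell blastomeres minus that over 4-cell blastomeres, and differences past 1 log2 unit in either direction are counted. Because each value is relative to its library, fewer transcripts of a gene and more transcripts of the other genes cannot be told apart. The values do not give the amount of RNA per blastomere.

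A fully grown oocyte is transcriptionally silent and stores its messenger RNAs, and most of them are removed between meiotic maturation and the first cleavages. Removal starts with the shortening of the poly(A) tail, carried out mainly by the CCR4-NOT complex, whose catalytic subunits are one of the paralogues Cnot6 or Cnot6l and one of Cnot7 or Cnot8. Adaptors bring CCR4-NOT to its targets (Btg4, the ZFP36 proteins that bind AU-rich elements, and the YTHDF proteins that bind N6-methyladenosine), and Tut4 and Tut7 add uridines to the shortened tail. Cpeb1 binds the cytoplasmic polyadenylation element and controls tail length in stored messages. Pabpn1l is a germ-line relative of the nuclear poly(A)-binding protein Pabpn1.

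The estimated number of fragments in the FPKM denominator was 6.86 to 16.9 M per 4-cell blastomere (median 13.4) and 2.33 to 21.7 M per 8-cell blastomere (median 17.2). Between 3009 and 8276 genes were above 1 per 4-cell blastomere and between 3548 and 8078 per 8-cell blastomere, and 3 blastomeres of each stage had fewer than 5000. Of the stage markers, 5 of the 14 oocyte markers listed in both tables were past 1 in the lower direction and 0 in the higher, where 9.67% and 5.17% of all genes were, with Gdf9 and Nlrp5 both at a difference of -2.43. Of 12 embryonic genes, 4 were higher, among them the epithelial keratins Krt8 (5.47) and Krt18 (4.95), and 1, Nanog, was lower (-1.32). The markers of cumulus and granulosa cells listed in the tables summed to at most 5.199 FPKM in any 4-cell and 6.67 in any 8-cell blastomere, and those of sperm to at most 8.79 and 23.3, with a median sum of 0 for both lists at both stages. Genes that every cell uses were in part listed at 0 in single blastomeres (Gapdh in 1 of 24 and 1 of 26, Polr2a in 4 of 26 at the 8-cell stage), so a member at 0 is described as listed at 0 and not as absent.

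The members differed widely in level, and the order was led by the same 2 general factors at both stages. At the 4-cell stage the medians ran from Ythdf2 (116 FPKM) through Cnot7 (46.1), Ythdf3 (14.3), Btg4 (11.6), Tut7 (3.03) and Zfp36l2 (1.46) to Tut4 (0.0121), with Cnot6l, Cpeb1 and Pabpn1l at a median of 0. Within single 4-cell blastomeres Ythdf2 lay above Cnot7 in 22 of 24 and Cnot7 above Ythdf3 in 19 of 24, whereas Ythdf3 and Btg4 were not ordered, with Ythdf3 the higher in 13 and Btg4 the higher in 11. At the 8-cell stage the medians ran from Ythdf2 (155) through Cnot7 (56.3), Ythdf3 (7.28), Tut4 (3.40) and Tut7 (3.23) to Cnot6l (0.647), Zfp36l2 (0.588), Btg4 (0.114) and Cpeb1 (0). Ythdf2 was above Cnot7 in 23 of 26 of these blastomeres and Cnot7 above Ythdf3 in 26 of 26. The lower neighbours overlapped: Tut4 was the higher in 10 and Tut7 in 14, Cnot6l in 10 and Zfp36l2 in 12, and Zfp36l2 in 11 and Btg4 in 10. Btg4 thus stood beside Ythdf3 at the 4-cell stage and next to last among the listed members at the 8-cell stage.

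**Figure D1:**
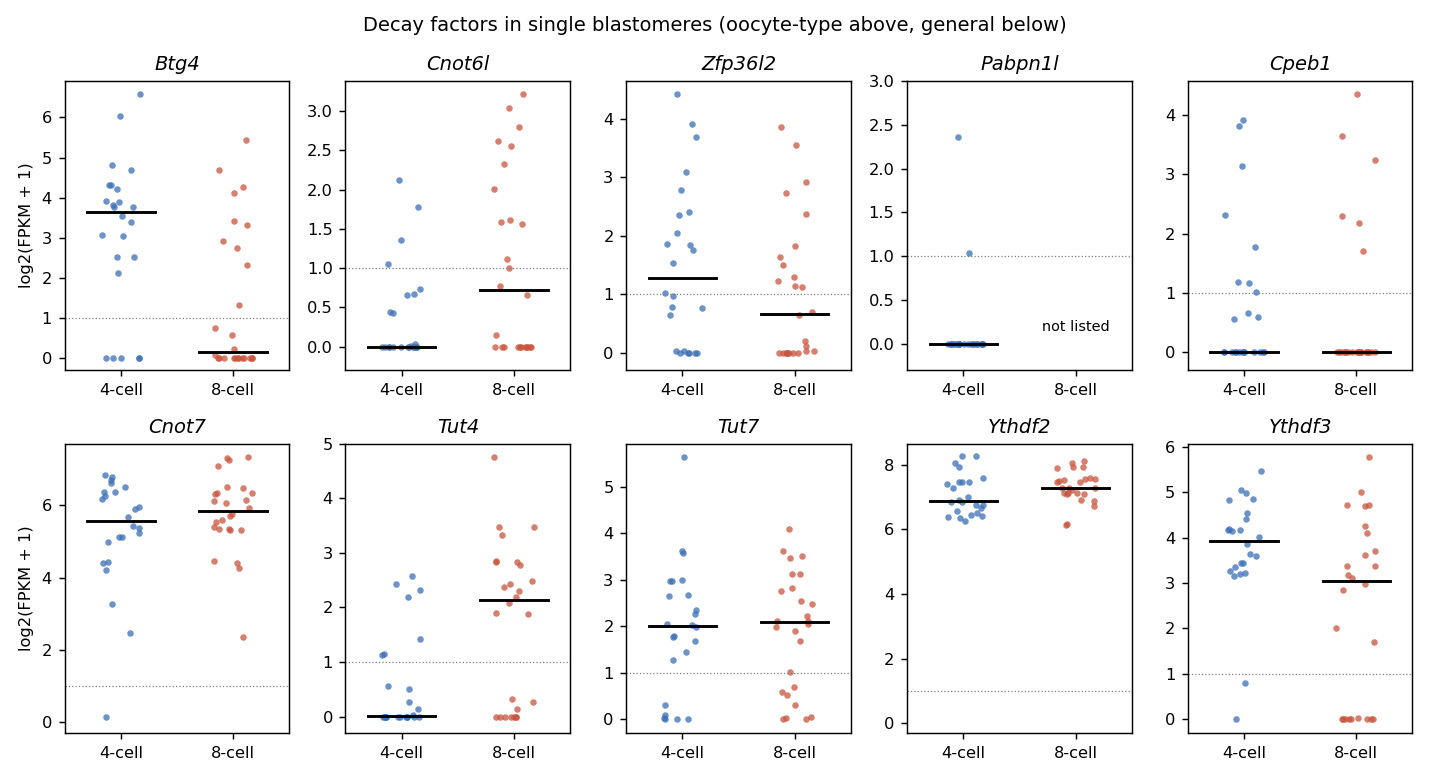
Level of each member in every blastomere as log2(FPKM + 1), with 24 4-cell blastomeres in blue and 26 8-cell blastomeres in red, the median as a black bar and FPKM 1 as a dotted line. Btg4 sits mostly high at the 4-cell stage and mostly at or near 0 at the 8-cell stage, Tut4 the other way, and Ythdf2 is high in every blastomere.

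Btg4 (Entrez 56057, chr9:51102147-51119924 in mm10, plus strand) is a BTG/TOB protein that recruits CCR4-NOT to maternal messages during oocyte maturation, and it had the largest stage difference of the members. At the 4-cell stage it was listed at 0 in 5 of 24 blastomeres and lay between 3.39 and 94.5 FPKM in the other 19, with a median of 11.6. At the 8-cell stage it was listed at 0 in 12 of 26 blastomeres, was above 0 and at most 1 in 4, and was above 1 in 10, with a median of 0.114 and a highest value of 42.0. Values of both stages overlapped over most of their range, and the 4-cell value was the higher in 419 of the 624 pairs of a 4-cell with an 8-cell blastomere, the 8-cell value in 145, with 60 ties. The stage difference was -3.49, and 0.515% of the genes listed in both tables had a lower one. The 2 highest 4-cell values, 94.5 and 64.7, belonged to blastomeres with 3009 and 5336 genes above 1, while 2 of the 5 blastomeres at 0 also had few genes (3699 and 4939). Leaving out the blastomeres with fewer than 5000 genes gave -3.18, and leaving out any single blastomere gave -3.60 to -3.38. The size of the difference depended on the scale: it was -5.82 with a pseudocount of 0.1, -1.69 with one of 5, and -1.71 with the mean of the log values in place of the median.

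Because Btg4 carries the main stage difference, sequence of its promoter and 3′ end is shown. The RefSeq promoter window, 250 bases before to 50 after a start, lies at chr9:51115751-51116050 (GRCm38.p6, plus strand), inside the annotated span of the gene and not at its first base. It was poor in CpG, with 1 CpG and 39.0% G and C. Of all 32851 promoter windows of that length, 5.43% held fewer CpG. Capitals mark a CCAAT box, a motif that 37.4% of all windows held on either strand.
Btg4 promoter: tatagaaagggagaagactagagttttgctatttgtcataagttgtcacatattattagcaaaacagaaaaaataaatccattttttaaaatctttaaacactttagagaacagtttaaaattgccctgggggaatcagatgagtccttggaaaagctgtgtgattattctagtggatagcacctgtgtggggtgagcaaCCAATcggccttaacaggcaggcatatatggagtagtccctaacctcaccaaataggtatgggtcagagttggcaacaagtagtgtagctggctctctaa
The last 100 transcribed bases of Btg4 held a cytoplasmic polyadenylation element, searched as TTTTAT or TTTTAAT on the transcript strand, 53 bases before the end, together with a polyadenylation signal, AATAAA or ATTAAA, 28 bases before the end. Shown are 20 bases at chr9:51119865-51119884 with the element in capitals. It does not overlap the signal.
Btg4 3′ end: tcatctaTTTTATaaaagtg

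Cnot6l (Entrez 231464, chr5:96070333-96164198, minus strand) is a catalytic subunit of CCR4-NOT, and it was low at both stages. It lay between 0 and 3.34 FPKM at the 4-cell stage with a median of 0, and between 0 and 8.34 at the 8-cell stage with a median of 0.647. It was above 1 in 4 of 24 and in 11 of 26 blastomeres, and the highest 8-cell values lay above every 4-cell value. The stage difference was 0.72, within 1 log2 unit, and the 8-cell value was the higher in 327 of 624 pairs against 154. It passed 1 with a pseudocount of 0.1 (2.90) and after rescaling to equal sums (1.36). An FPKM of 1 for this long transcript stands for 60.5 to 149 fragments at the 4-cell stage.

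Zfp36l2 (Entrez 12193, chr17:84183924-84187947, minus strand) binds AU-rich elements and brings them to deadenylation. It lay between 0 and 20.4 FPKM at the 4-cell stage with a median of 1.46, and between 0 and 13.6 at the 8-cell stage with a median of 0.588. It was above 1 in 13 of 24 and 12 of 26 blastomeres, and the groups overlapped throughout. The stage difference was -0.61. It was -0.13 without the columns named NA, -0.87 to -0.35 without single blastomeres and -1.12 with a pseudocount of 0.1. The highest 4-cell value belonged to the blastomere with 3009 genes.

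Cpeb1 (Entrez 12877, chr7:81347026-81458001, minus strand) was listed at 0 in 13 of 24 4-cell and 20 of 26 8-cell blastomeres, with medians of 0. The other blastomeres reached 14.1 and 19.5 FPKM. Of all 17 values above 0, the lowest was 0.484 FPKM, which stands for about 20.1 fragments by the estimate, and no blastomere was listed between 0 and that value. It was above 1 in 8 and 6 blastomeres, and its stage difference was 0.

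Pabpn1l (Entrez 382035, chr8:122619471-122622735, minus strand) was above 0 in 2 of 24 4-cell blastomeres, at 1.05 and 4.15 FPKM, and was listed at 0 in the other 22. It has no row in the 8-cell table and is counted in no stage difference. A count of 3 fragments would have given it between 0.156 and 0.382 FPKM in a 4-cell blastomere, a floor that covers counting error only.

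Among the general factors, Cnot7 (Entrez 18983, chr8:40492538-40515847, minus strand), a catalytic subunit of CCR4-NOT, was above 1 in 23 of 24 4-cell and in all 26 8-cell blastomeres. Its values ran from 0.0928 to 113 FPKM with a median of 46.1 at the 4-cell stage and from 4.15 to 161 with a median of 56.3 at the 8-cell stage. The stages overlapped over nearly the whole range, and the difference was 0.29, with the 8-cell value the higher in 361 of 624 pairs and the 4-cell value in 263. Without the blastomeres with fewer than 5000 genes the difference was -0.21, so that its direction is not settled.

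Tut4 (Entrez 230594, chr4:108459410-108559415, plus strand), a terminal uridylyltransferase, had the largest difference in the other direction. At the 4-cell stage it was listed at 0 in 12 of 24 blastomeres, was above 1 in 7 and did not exceed 4.95 FPKM, with a median of 0.0121. At the 8-cell stage it was listed at 0 in 7 of 26, was above 1 in 16 and reached 26.1, with a median of 3.40. The 8-cell value was the higher in 404 of 624 pairs and the 4-cell value in 136. The stage difference was 2.12, and 1.19% of genes had a higher one. It stayed past 1 without any single blastomere (2.06 to 2.18) and without the blastomeres with few genes (2.16), but was 1.11 with the mean of the log values and 0.75 with a pseudocount of 5. Every one of the 6 blastomeres with fewer than 5000 genes had Tut4 at 0.

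Tut4 is shown as the member that was higher at the 8-cell stage. Its first promoter window, chr4:108459160-108459459 (RefSeq, GRCm38.p6, plus strand), held 28 CpG and 68.0% G and C, and 85.8% of all windows held fewer CpG. Capitals mark a GC box, searched as GGGCGG on both strands and held by 35.7% of all windows.
Tut4 promoter: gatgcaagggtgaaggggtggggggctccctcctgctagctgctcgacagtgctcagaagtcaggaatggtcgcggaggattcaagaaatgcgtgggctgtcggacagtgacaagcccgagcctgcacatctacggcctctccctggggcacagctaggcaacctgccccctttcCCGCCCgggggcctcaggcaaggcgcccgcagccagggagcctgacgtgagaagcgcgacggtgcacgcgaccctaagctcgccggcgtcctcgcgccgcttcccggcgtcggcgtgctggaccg

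Tut7 (Entrez 214290, chr13:59771876-59823169, minus strand), the paralogue of Tut4 with the same activity, lay between 0 and 49.2 FPKM at the 4-cell stage with a median of 3.03, and between 0 and 15.98 at the 8-cell stage with a median of 3.23. It was above 1 in 18 of 24 and 18 of 26 blastomeres, and its stage difference was 0.07. The 8-cell value was the higher in 319 pairs and the 4-cell value in 299.

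Ythdf2 (Entrez 213541, chr4:132184916-132212256, minus strand), a reader of N6-methyladenosine that recruits CCR4-NOT, was the most abundant member and was above 1 in every blastomere. It lay between 74.7 and 310 FPKM at the 4-cell stage with a median of 116, and between 68.9 and 277 at the 8-cell stage with a median of 155. Each of its values rested on about 2488 fragments or more. The stage difference was 0.41, with the 8-cell value the higher in 398 of 624 pairs. The 4 highest 4-cell values, 310, 309, 263 and 240, lay in the 4 blastomeres with the fewest genes above 1 (3009, 5336, 3699 and 4939).

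Ythdf2 is shown as the member present throughout. Its promoter window, chr4:132212207-132212506 (RefSeq, GRCm38.p6, minus strand), held 32 CpG and 66.3% G and C, more CpG than 90.5% of all windows, and its 2 GC boxes are in capitals.
Ythdf2 promoter: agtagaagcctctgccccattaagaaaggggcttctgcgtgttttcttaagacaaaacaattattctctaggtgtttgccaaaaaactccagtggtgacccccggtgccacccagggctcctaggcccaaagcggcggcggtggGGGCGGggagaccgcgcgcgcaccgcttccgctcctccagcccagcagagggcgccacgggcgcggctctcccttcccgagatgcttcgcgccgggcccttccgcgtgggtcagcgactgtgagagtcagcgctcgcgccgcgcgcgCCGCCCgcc
The last 100 bases of its transcript also held TTTTAT, here 98 bases before the end, shown in capitals within chr4:132184996-132185015.
Ythdf2 3′ end: ctTTTTATtataaaatatat

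Ythdf3 (Entrez 229096, chr3:16183148-16217037, plus strand), another reader of the same family, lay between 0 and 43.1 FPKM with a median of 14.3 at the 4-cell stage and between 0 and 53.8 with a median of 7.28 at the 8-cell stage. It was above 1 in 22 of 24 4-cell and 17 of 26 8-cell blastomeres, and was listed at 0 in 1 and 6. The 4-cell value was the higher in 434 of 624 pairs, more than for Btg4, although the difference of medians was -0.89 and within 1 log2 unit. With the mean of the log values in place of the median it was -1.31.

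Of the 9 members listed in both tables, 1 (Btg4) was past 1 log2 unit in the lower direction, where 9.67% of all 13604 genes were, and 1 (Tut4) was past it in the higher direction, where 5.17% of all genes were. With 9 genes, neither count stands apart from those shares. The median difference was -0.30 over the 4 oocyte-type members listed in both tables and 0.29 over the 5 general ones, against 0 over all genes. The median of the general members is the value of Cnot7, whose sign turns without the blastomeres with few genes. Of the 4 oocyte-type members only Btg4 passed 1, and the differences of Zfp36l2, Cnot6l and Cpeb1 were within it.

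**Figure D2:**
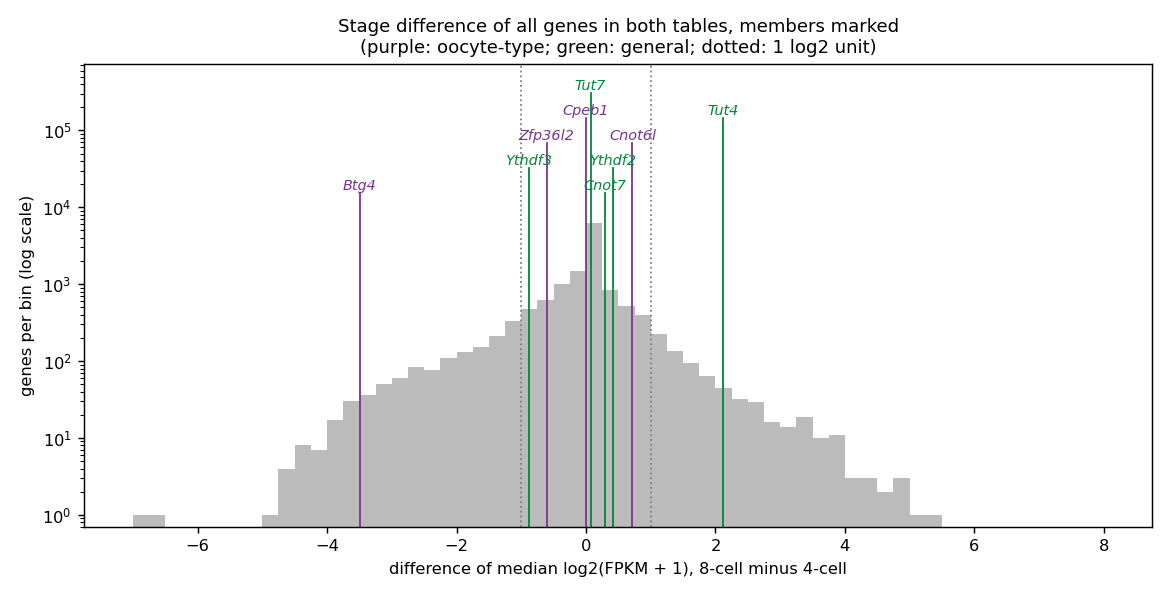
Histogram of the stage difference (8-cell minus 4-cell, difference of median log2(FPKM + 1)) of the 13604 genes in both tables, with the number of genes per bin on a log axis and each of the 9 listed members as a labelled line whose height carries no value. Btg4 at -3.49 and Tut4 at 2.12 lie outside the dotted lines at 1 log2 unit, and the other 7 lie inside.

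Counted within blastomeres, the oocyte-type members above 1 had a lower median number at the 8-cell stage and the general ones the same one. The median number of oocyte-type members above 1 was 2 of 5 in 4-cell blastomeres (range 0 to 3) and 1 in 8-cell blastomeres (range 0 to 4), and none was above 1 in 2 of 24 and 5 of 26 blastomeres. The median number of general members above 1 was 4 of 5 at both stages, with a range of 2 to 5. In summed FPKM, the oocyte-type members made up a median of 8.45% of the 10 genes at the 4-cell stage (0 to 25.8%) and 1.76% at the 8-cell stage (0 to 17.3%). Without the blastomeres with few genes the medians were 8.82% and 2.30%. Pabpn1l, with no row in the 8-cell table, adds nothing to the 8-cell counts and sums, which cover 9 genes. The oocyte-type sum had a median of 17.8 FPKM at the 4-cell stage and 4.83 at the 8-cell stage, and the general sum 201 and 253, so that general factors outweighed the others in every blastomere of both stages. Added over blastomeres, Btg4 made up 72.1% of the oocyte-type FPKM at the 4-cell stage and 47.9% at the 8-cell stage. The lower oocyte-type sum was mostly that of Btg4, with mean FPKM of 15.9 and 5.35. Means were 3.53 and 2.06 for Zfp36l2, 1.94 and 1.90 for Cpeb1, and 0.458 and 1.85 for Cnot6l, which was higher at the 8-cell stage.

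The members were also set beside their paralogues. In the BTG/TOB family, whose members bind Cnot7 and Cnot8, Btg4 made up 38.2% of the summed FPKM over 4-cell blastomeres and 26.6% over 8-cell blastomeres, with median shares per blastomere of 29.5% and 1.72%, and it was the highest member in 8 of 24 and 5 of 26. Btg1 was the highest in 11 and 14, with medians of 11.7 and 5.81 FPKM. Tob1 had medians of 1.90 and 0, a difference of -1.53. Tob2 had medians of 0.617 and 0, Btg2 was at a median of 0 at both stages, and Btg3 did not exceed 0.514 in any blastomere.

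Between the catalytic paralogues of CCR4-NOT, Cnot8 lay above Cnot7 in 24 of 24 4-cell and 25 of 26 8-cell blastomeres. Cnot8 ran from 179 to 629 FPKM with a median of 295 at the 4-cell stage and from 100 to 277 with a median of 176 at the 8-cell stage. The 4-cell value of Cnot8 was the higher in 575 of 624 pairs, although the difference of -0.75 was within 1 log2 unit. The share of Cnot7 in the sum of the pair had a median of 15.1% at the 4-cell stage and 23.03% at the 8-cell stage. Cnot6, with medians of 3.54 and 5.32, was above its paralogue Cnot6l in 21 of 24 and 19 of 26 blastomeres.

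Of the uridylyltransferases, Tut7 was the higher in 19 of the 22 4-cell blastomeres that had either at a level above 0, and Tut4 in 3. At the 8-cell stage Tut7 was the higher in 14 and Tut4 in 10 of 24. Tut4 made up 14.6% of the summed FPKM of the pair over 4-cell blastomeres and 50.2% over 8-cell blastomeres, and its median shares per blastomere were 1.78% and 38.3%. Ythdf2 was the highest of the 3 cytoplasmic YTHDF readers in every blastomere of both stages, with a median share of 87.0% and 91.1%. Ythdf1 had medians of 3.74 and 9.22 FPKM and a difference of 1.11, although the 8-cell value was the higher in only 339 of 624 pairs against 276 and the means were 8.40 and 8.65. Its median lay below that of Ythdf3 at the 4-cell stage and above it at the 8-cell stage.

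In the remaining families, Zfp36 (medians 17.2 and 15.4) lay above Zfp36l2 and Zfp36l1 in 21 of 24 and 24 of 26 blastomeres, and Zfp36l1 was at a median of 0. Pabpn1, the nuclear poly(A)-binding protein, was above 1 in every blastomere with medians of 123 and 54.1, a difference of -1.17, and made up 99.8% of the sum with Pabpn1l at the 4-cell stage. Cpeb1 made up 21.6% and 18.4% of the summed FPKM of the 4 CPEB genes, and Cpeb2, Cpeb3 and Cpeb4 had medians between 0.621 and 1.92 at both stages.

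**Figure D3:**
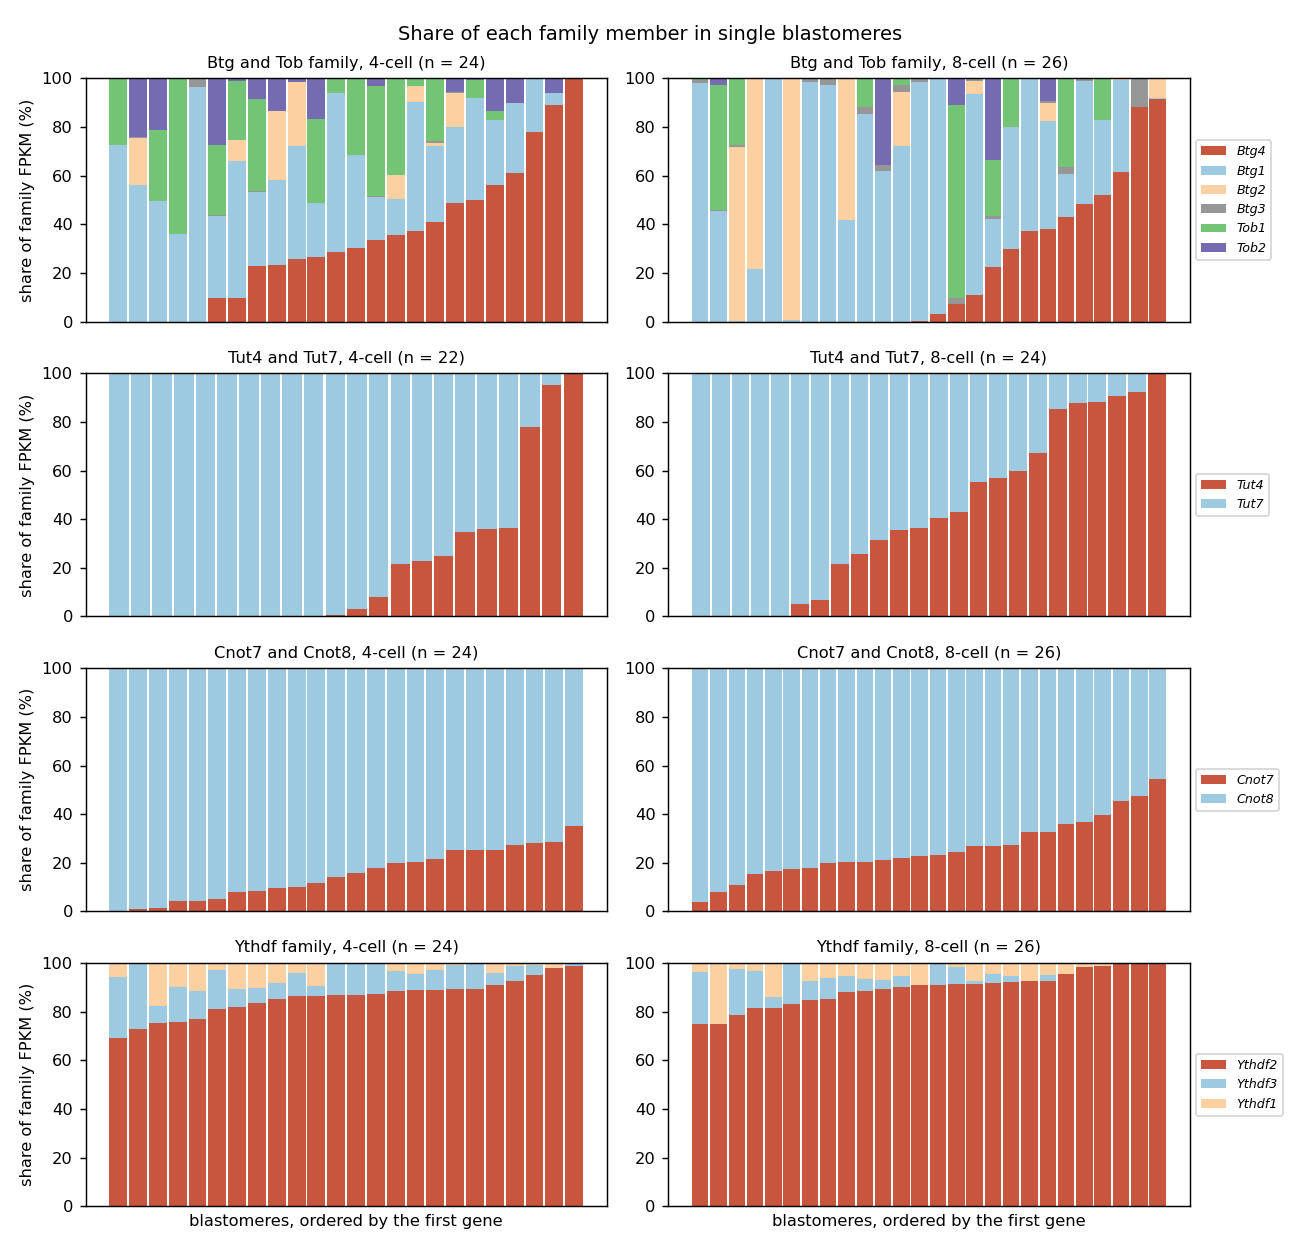
Share of each paralogue in the summed FPKM of its family in single blastomeres, in percent, ordered by the share of the first gene named (red), with 4-cell blastomeres on the left and 8-cell blastomeres on the right. Ythdf2 fills most of each bar at both stages, Cnot7 stays below Cnot8 in all but 1 blastomere, and Tut4 takes 14.6% of the pair's FPKM at the 4-cell stage and 50.2% at the 8-cell stage.

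The wider decay machinery did not move as a block. Of 146 genes on 12 lists, the members among them, 137 were listed in both tables, and 15 of these (10.9%) were past 1 in the lower and 9 (6.57%) in the higher direction, close to the shares of 9.67% and 5.17% among all genes. The median difference over the 137 genes was 0. Of all 13604 genes, 5085 had a difference of exactly 0, which lowers the shares among all genes. With only genes of a mean FPKM above 1, those shares were 13.8% lower and 7.39% higher. The counts of decay genes stayed at 15 and 9 in that setting. Of the 6 BTG and TOB genes, 2 were lower, Btg4 and Tob1, and 0 were higher, with a list median of -0.80. Among 12 CCR4-NOT subunits only Cnot11 passed 1 (medians 0.113 and 6.24 FPKM, difference 2.70), and the scaffold Cnot1 had medians of 24.04 and 35.8. Other deadenylases split, with Noct (2.20), Toe1 (1.44) and Pde12 (1.02) higher and Angel2 (-1.68) and Pnldc1 (-1.67), an exonuclease of germ-line piRNA maturation, lower, out of 9.

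Among 22 genes of decapping and 5′ decay, 3 were lower and 0 higher: Dcps, the scavenger enzyme that hydrolyses the freed cap (8.06 to 0 FPKM, -3.18), Lsm14a (-1.58) and Pnrc2 (-1.50). For Dcps the 4-cell value was the higher in only 330 of 624 pairs and the 8-cell value in 150, with 144 ties. These pair counts were 433 against 188 for Lsm14a and 339 against 243 for Pnrc2. The decapping enzyme Dcp2 (0.867 and 0.403) and the exonuclease Xrn1 (5.21 and 6.13) differed by less than 1 log2 unit. Of 17 genes of the exosome and 3′ decay only Dis3l was past 1 (-1.73). Among 10 nonsense-mediated decay genes 2 were higher, Upf3a (1.71) among them, and 0 were lower.

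Among 9 AU-rich element proteins Elavl2 was lower (-1.52), and among 9 terminal nucleotidyltransferases Tent4a was lower (-1.57) and Tut4 higher. Among 7 poly(A)-binding proteins and partners Pabpn1 was lower, and Pabpc1, the main cytoplasmic poly(A)-binding protein, had medians of 96.8 and 191 FPKM, with the 8-cell value the higher in 562 of 624 pairs at a difference of 0.98. Of 18 m6A genes 3 members of the methyltransferase complex were lower, Mettl3 (-1.24), Zc3h13 (-1.05) and Cbll1 (-1.03), and Ythdf1 was higher. Leaving out 1 blastomere could bring these 3 within 1, to -0.99, -0.96 and -0.93. Of 14 genes of cytoplasmic polyadenylation Dazl was lower (-1.10, but -2.17 to -0.03 over the sets that leave out 1 blastomere) and the cleavage factor subunit Cpsf1 higher (1.63). Of 9 genes of oocyte mRNA storage none passed 1, and 5 of the 4-cell medians and 6 of the 8-cell medians were 0.

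**Figure D4:**
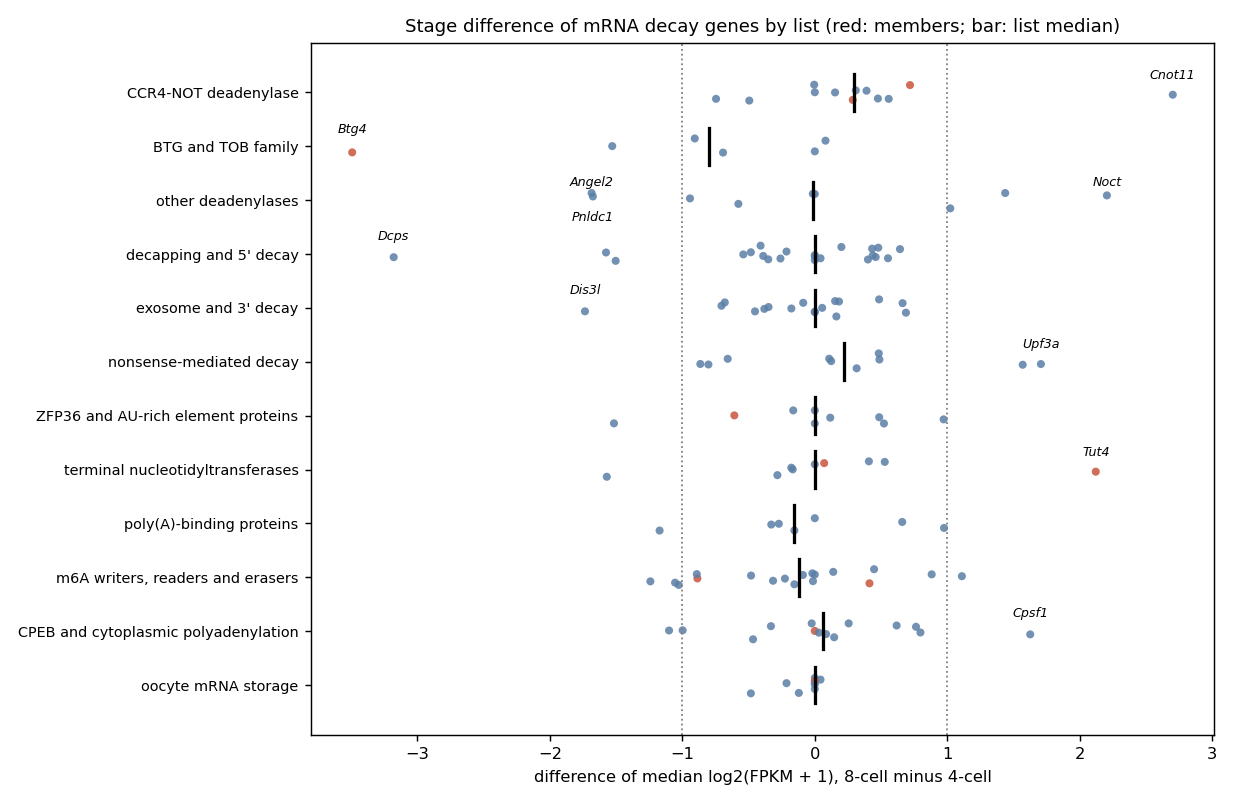
Stage difference (difference of median log2(FPKM + 1), 8-cell minus 4-cell) of each gene on 12 decay lists, with members in red, list medians as bars and dotted lines at 1 log2 unit. Differences lie on both sides of 0 in most lists, and Btg4 (-3.49), Dcps (-3.18) and Cnot11 (2.70) lie farthest out.

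Within a stage the members did not rise and fall together. Over the 36 pairs of the 9 members listed in both tables, Spearman's rho had a median of -0.03 at the 4-cell stage (n = 24 blastomeres) and 0.05 at the 8-cell stage (n = 26), and 10 pairs were positive and 10 negative at both stages. The lowest was Cnot7 with Ythdf2 at the 4-cell stage (rho -0.51), and the highest Cnot6l with Tut4 at the 8-cell stage (rho 0.52). These are descriptions, since blastomeres share embryos and differ in depth. At the 4-cell stage Cnot7 and Tut4 were higher where more genes were above 1 (rho 0.64 and 0.51) and Ythdf2 was lower there (rho -0.57). At the 8-cell stage the same values were -0.11, 0.31 and -0.05. The part of gene detection in the levels was not tested.

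**Figure D5:**
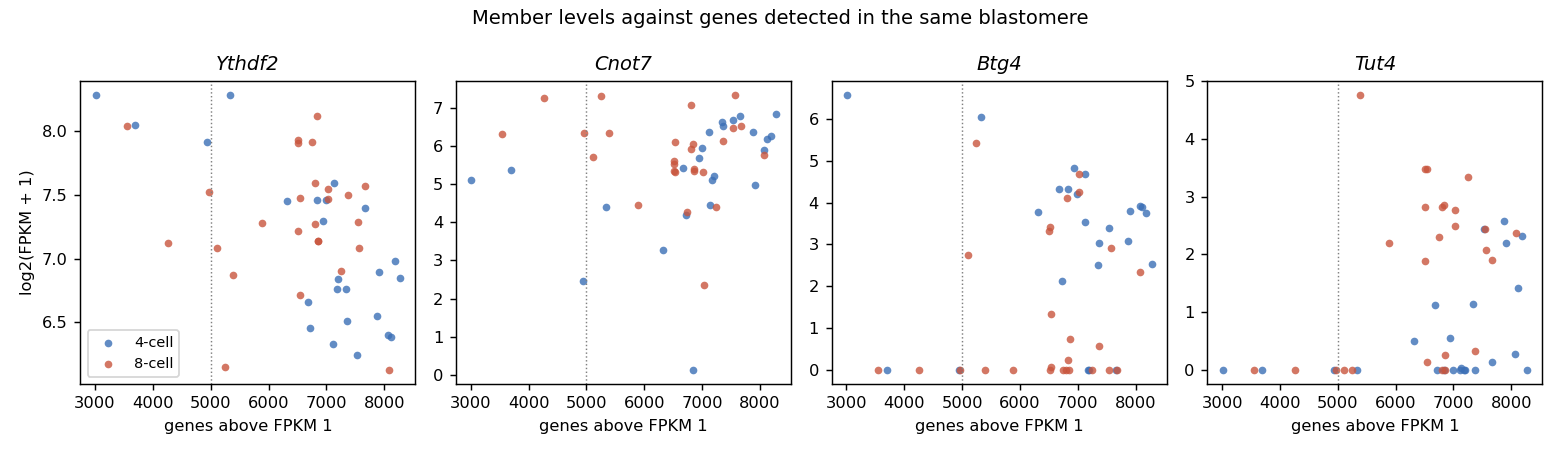
Level of Ythdf2, Cnot7, Btg4 and Tut4, as log2(FPKM + 1), against the number of genes above FPKM 1 in the same blastomere, with 4-cell blastomeres in blue, 8-cell in red and a dotted line at 5000 genes. The highest 4-cell values of Ythdf2 (310) and Btg4 (94.5) both belong to the blastomere with 3009 genes, and Tut4 is at 0 left of the line.

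For 5 members that were above 1 in at least 12 blastomeres of each stage, the genes with the most similar pattern were sought among 6130 genes that met the same rule, by the lower of the within-stage rho values. For Cnot7 these were Cldn7 (rho 0.73 among 4-cell and 0.70 among 8-cell blastomeres), Zfp985 (0.66 and 0.70) and Bcas2 (0.67 and 0.66). For Ythdf3 they were Ctps (0.62 and 0.63), Hspa9 (0.61 and 0.59) and Mios (0.59 and 0.83). For Ythdf2 they were Luc7l (0.57 and 0.64), Crnkl1 (0.77 and 0.57) and Hnrnpa2b1 (0.65 and 0.52). For Zfp36l2 (Lss, Lyar and Cog8) and Tut7 (Rnpep, Gfm2 and Lpcat4) the lower rho did not exceed 0.50. None of these genes is a member, and each is the highest of many values compared.

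Promoter windows were at hand for 7 members. Btg4 (1 CpG) and Pabpn1l (5 CpG) held fewest. The 9 windows of Cnot6l and Cpeb1, also oocyte-type members, and of Tut4, Tut7 and Ythdf2 held between 18 and 49. The median was 7 in all windows and 18 in the first windows of listed genes. Of the 11 windows only that of Cpeb1 held a TATA box, TATAAA on either strand, which 13.6% of all windows held. At the 3′ end, all 10 members held AATAAA or ATTAAA in the last 100 bases of the RefSeq Select transcript, as 81.3% of 15440 transcripts did, and 2 members, Btg4 and Ythdf2, held TTTTAT or TTTTAAT, as 18.3% did. Of the 2421 genes with these letters in both tables, 10.7% were past 1 in the lower direction, beside 9.89% of the 10286 without, and 5.70% against 5.10% in the higher direction, with a median of 0 in each. A match is a run of letters and not evidence of a working site.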

How the data were processed

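Single blastomeres of mouse embryos were sequenced with Nextera XT libraries, made from cDNA that had been amplified by the SMART-seq2 protocol. Fragments are therefore pieces of amplified cDNA and not counts of molecules. The part of poly(A) tail length in the values was not tested. Per the study's methods and processing notes, the authors aligned reads with STAR 2.5.1b to mm10, counted uniquely aligned reads per RefSeq gene with HTSeq and deposited FPKM values per gene and stage. The lengths and totals behind these FPKM values are not given in the sources used here. None of the 50 columns of the gene tables was tied to a sample, embryo or lineage. They were used as blastomeres of their stage, and tests set out for mapped samples were not run. The repeat tables were not used. One gene of the decay lists is counted but not reported by name here.

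The members and gene lists were chosen with earlier results of these data known. Named genes are all members, their paralogues, the largest differences past 1 in each list and the 3 most similar genes. Cnot1, Dcp2, Xrn1 and Pabpc1, all within 1 log2 unit, are named besides, as are some markers and genes that every cell uses. Fragments per FPKM denominator were estimated from genes with 1 curated transcript, as the value that makes low FPKM whole multiples of 1 fragment (at least 91.3% of values of up to about 10 fragments were whole, tolerance 0.1 fragments). Fragment numbers rest on RefSeq exon lengths (GRCm38.p6), which can differ from those of the authors, and are approximate. Stage differences used a pseudocount of 1. They were also run on simulated data, whose outcome is not given here and lends no support to the differences of Btg4 and Tut4. The median of Btg4 at the 8-cell stage (0.114 FPKM) and of Tut4 at the 4-cell stage (0.0121 FPKM) lay near the floor. There the size of a difference moved with the pseudocount. Scripts ran in Python with pandas, NumPy and SciPy. Alternatives changed the pseudocount, scaling, summary, filter and blastomeres included.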

Additional observations from a re-analysis of the deposited data

How the results depend on the processing

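With a pseudocount of 0.1, 2 members were past 1 in each direction, and the differences of Btg4 and Tut4 were -5.82 and 4.97. At this setting 24 decay genes were lower and 12 higher, where 14.1% and 7.49% of all genes were. With a pseudocount of 5, 0 members were higher and Tut4 was at 0.75. Then 6 decay genes were lower and 6 higher, where 3.98% and 2.12% of all genes were. After rescaling to equal sums, 2 members were higher, and with the mean in place of the median 2 were lower. Under every alternative run Btg4 was past 1 in the lower direction (-5.82 to -1.69), and neither Btg4 nor Tut4 changed sign. The decay genes that are not members were recomputed singly only without each blastomere in turn. Leaving out single blastomeres moved Btg4 between -3.60 and -3.38 and Tut4 between 2.06 and 2.18. The cause of these shifts was not tested. Of the 337 other values under an alternative, 314 stayed within their limits and 23 moved, most of them counts of blastomeres above another threshold. No paired analysis was possible because the tables give no link by column name to the replicate numbers and embryos of the labels. The planned lineage alternatives were not run for the same reason. This holds for column names only. A link through depth, from the estimated fragments per column to the reads per blastomere given in the paper, was not tested.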
